A study of Mus musculus with 22 samples.

Results

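Kidneys of Clock knockout (KO) and wild-type (WT) mice were compared for 10 genes that set how much sodium the distal nephron reabsorbs. The genes are the kinases Sgk1, Wnk1, Wnk4, Stk39 and Oxsr1, the ubiquitin ligase genes Nedd4l, Klhl3 and Cul3, the mineralocorticoid receptor Nr3c2 and the enzyme Hsd11b2. They were listed by name as members of the WNK, SGK1, NEDD4L and mineralocorticoid pathways, and each was read through its brightest probe set with a single gene symbol. All 10 passed the filter on low values that left 13967 genes. KO animals carried the labelled genotype clock(-/-), lacking the circadian transcription factor Clock, and WT animals carried the wild-type allele. Both came from a colony bred from heterozygous mice, were adapted to 12 h of light and 12 h of dark for 2 weeks, and spent 30 h in constant darkness before kidneys were taken. The labels give no strain, sex or age, name the left kidney as tissue, and do not name the deleted part of Clock. There were 11 KO and 11 WT arrays at 6 circadian times (zeitgeber time, ZT, with lights on at ZT0 and off at ZT12 in the earlier cycle). RNA from 2 or 3 mice was pooled for an array, and each time had 2 pools per genotype except 1 KO pool at ZT16 and 1 WT pool at ZT8.

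In the distal convoluted tubule, WNK kinases switch on the related kinases SPAK (Stk39) and OSR1 (Oxsr1), which phosphorylate and activate the sodium-chloride cotransporter. The adaptor KLHL3 and the scaffold CUL3 form a ubiquitin ligase that marks WNK kinases for destruction. Further downstream, aldosterone acts through the mineralocorticoid receptor to raise SGK1, a kinase that restrains the ubiquitin ligase NEDD4-2 (Nedd4l) and so keeps the epithelial sodium channel at the cell surface. The enzyme encoded by Hsd11b2 inactivates glucocorticoids, which would otherwise occupy that receptor. Sgk1 is also induced by glucocorticoids, whose blood level follows the time of day.

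Promoter sequences are shown for Sgk1, the member with the largest rhythm, for Klhl3, the member that differed between genotypes, and for Nr3c2, the other rhythmic member. They come from RefSeq on GRCm38.p6 and cover the 250 bases before an annotated start, 5′ to 3′. Sequences were matched for 8 of the 10 members, and Sgk1 has 6 annotated starts. Nedd4l and Hsd11b2 were not matched. Capitals mark matches on either strand to CACGTG (the E-box that Clock and its partner bind), CACGTT (a variant of it), AGGTCA (bound by several nuclear receptors) or TGTTCT (one side of the steroid receptor element).
Sgk1, chr10:21993640-21993889, plus strand: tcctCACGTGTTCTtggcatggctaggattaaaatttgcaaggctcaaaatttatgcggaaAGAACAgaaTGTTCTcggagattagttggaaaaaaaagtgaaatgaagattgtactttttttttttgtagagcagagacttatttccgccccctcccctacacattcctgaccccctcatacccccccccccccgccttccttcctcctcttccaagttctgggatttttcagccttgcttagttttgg
Klhl3, chr13:58113648-58113897, minus strand: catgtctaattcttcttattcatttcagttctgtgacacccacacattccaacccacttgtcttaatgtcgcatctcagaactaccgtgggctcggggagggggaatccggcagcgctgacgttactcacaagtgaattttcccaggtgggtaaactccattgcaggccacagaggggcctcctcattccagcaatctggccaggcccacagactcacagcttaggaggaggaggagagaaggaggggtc
Nr3c2, chr8:76902080-76902329, plus strand: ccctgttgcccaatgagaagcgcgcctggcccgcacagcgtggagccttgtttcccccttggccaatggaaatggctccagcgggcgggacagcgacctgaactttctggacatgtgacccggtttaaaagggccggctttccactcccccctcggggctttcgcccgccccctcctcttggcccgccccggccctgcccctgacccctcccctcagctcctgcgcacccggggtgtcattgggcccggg

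Of the 6 Sgk1 windows, the one shown has the most matches, 4, and the others hold 1 or 0. The shown window holds CACGTG 246 bases before the start, overlapping a TGTTCT match that begins 242 bases before it. A further pair of matches, at 189 and 180 bases, faces each other across 3 bases and forms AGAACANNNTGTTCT, the full steroid receptor element. That full element is present in 3 of 32851 annotated windows of this length, or 0.00913%, and in no other window of a matched member. CACGTG is present in 6.02% of all windows, CACGTT in 3.85%, AGGTCA in 14% and TGTTCT in 16.1%. Among the 13 windows of members, CACGTG is in 1, CACGTT in 1 (Cul3), AGGTCA in 2 and TGTTCT in 3, with every match outside Cul3 in an Sgk1 window. Sgk1 has 6 of those windows, more than any other member, and so more places for a match. The windows of Klhl3 and Nr3c2 hold none of these letters. The Sgk1 probe set does not tell the 6 starts apart, and a match describes letters, not binding.

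The arrays had medians of 5.88 to 6.01 log2, on average 5.91 in KO and 5.95 in WT. Correlations between pools of one group were 0.987 to 0.993, within the range over any pair of arrays, 0.980 to 0.994. Clock averaged 8.95 ± 0.11 in KO and 8.86 ± 0.24 in WT (SD, n = 11 each), and since the deleted part is not named, this value does not check the labels. The 8 proximal tubule markers averaged 12.04 to 12.28 log2 in KO arrays and 12.09 to 12.20 in WT arrays. Of 6 adrenal markers, 5, including the steroid 11-beta-hydroxylase Cyp11b1 with a mean of 4.44 log2, lay below the filter. Results are also given without both KO pools at ZT20, the time with the most called genes. No member lies on chromosome 5, where Clock lies.

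The first comparison asked whether the mean level over the day depends on Clock. It came from one limma model over all 22 arrays with a mean and a 24 h wave per genotype, Benjamini-Hochberg adjusted over all 13967 genes, with a call at an adjusted p under 0.05. Errors after ± are standard errors of that fit unless SD is written. Of the 10 members, 1, Klhl3, was called, against a background of 9.14% of all genes called in either direction and 5.23% called higher in KO. At an unadjusted p under 0.05, 3 members passed (Klhl3, Stk39 and Wnk1), against 25.1% of all genes. The fitted KO minus WT difference was above 0 in 8 of 10 members, with a median of 0.055 log2, while 51.7% of all genes were above 0, with a median of 0.0040. In whole-kidney RNA, a change in the number of cells of a type and a change in RNA per cell cannot be told apart.

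**Figure D1:**
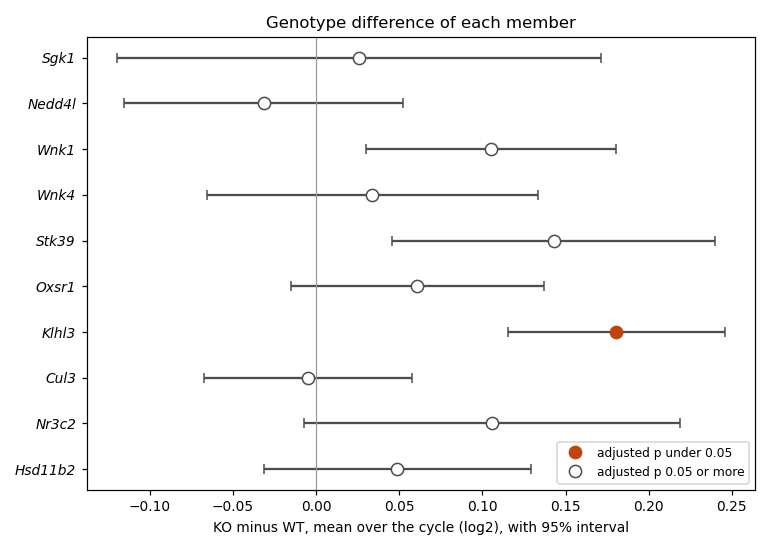
KO minus WT difference in mean log2 expression over the cycle (horizontal axis) for each of the 10 members, with 95% intervals from the limma fit to 11 KO and 11 WT arrays. The filled point, Klhl3 at 0.18 log2, passed an adjusted p under 0.05, and the open points did not.

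Klhl3, the adaptor that brings WNK kinases to the CUL3 ligase, was higher in KO by 0.18 ± 0.03 log2, or 13.3% (95% interval 0.12 to 0.25 log2, adjusted p = 0.000752 in limma). Its KO arrays ran from 8.47 to 8.65 with a median of 8.53, and its WT arrays from 8.21 to 8.48 with a median of 8.37. Of 11 KO arrays, 10 lay above the highest WT array, a count not made for all genes. The single overlap was KO ZT12 pool 1 at 8.47 against WT ZT8 at 8.48.

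By time, with the pools of a group set side by side, Klhl3 in KO read 8.63 / 8.53 (ZT0), 8.59 / 8.51 (ZT4), 8.64 / 8.49 (ZT8), 8.47 / 8.52 (ZT12), 8.65 (ZT16), 8.53 / 8.57 (ZT20). In WT it read 8.43 / 8.46 (ZT0), 8.46 / 8.46 (ZT4), 8.48 (ZT8), 8.37 / 8.29 (ZT12), 8.30 / 8.29 (ZT16), 8.32 / 8.21 (ZT20). At all 6 times every KO pool was above every WT pool of that time, a pattern shown by 0.745% of all genes. The gap was narrowest at ZT8 (0.08 ± 0.10) and ZT4 (0.09 ± 0.08), and widest at ZT16 (0.35 ± 0.10) and ZT20 (0.29 ± 0.08). None of these single-time differences was called, with adjusted p of 0.355 at ZT16 and 0.0824 at ZT20. In WT, the order of group means from high to low was ZT8, ZT4, ZT0, ZT12, ZT16 and ZT20. The pools of ZT0 lay clear of those of ZT12, and ZT8 of those of ZT4, while ZT4 and ZT0, ZT12 and ZT16, and ZT16 and ZT20 overlapped.

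The Klhl3 difference was also read in parts of the arrays that gave its call, so these values describe it and are not independent support. It was 0.19 log2 within pool 1 arrays (adjusted p = 0.0570) and 0.17 within pool 2 arrays (adjusted p = 0.446). Neither was called, and each fit had fewer arrays. Without both KO pools at ZT20 the difference was 0.19 (adjusted p = 0.00342).

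Markers of the distal convoluted tubule, the segment best known for KLHL3, moved the same way. Of 7 markers, 5 were called higher in KO and 0 lower: the magnesium channel Trpm6 (0.37 ± 0.05), the sodium-calcium exchanger Slc8a1 (0.37 ± 0.06), Pvalb (0.31 ± 0.06), the calcium-binding protein Calb1 (0.24 ± 0.06) and Slc16a7 (0.19 ± 0.05). Over all genes, 5.23% were called higher in KO and 3.9% lower. Without both KO pools at ZT20, 3 of the 7 markers were called (Trpm6, Slc8a1 and Pvalb). The sodium-chloride cotransporter itself, Slc12a3, differed by 0.14 ± 0.04 (adjusted p = 0.0539), and Egf by 0.06 ± 0.03. The mean of the 7 markers lay between 10.37 and 10.53 log2 in KO arrays and between 10.04 and 10.39 in WT arrays. Set against that mean within each array, Klhl3 differed by -0.06 ± 0.04 log2 (KO minus WT, wave model without moderation), with arrays from -1.99 to -1.79 in KO and from -2.06 to -1.64 in WT. Other marker lists called higher in KO were 3 of 6 for endothelium, 3 of 7 for intercalated cells, 2 of 8 for proximal tubule (with 2 lower), 3 of 8 for connecting tubule and principal cells, and 1 of 6 for thick ascending limb (with 1 lower). Leaving out the ZT20 KO pools, these counts were 3 for endothelium, 1 for intercalated cells, 2 for proximal tubule (with 1 lower), 2 for connecting tubule and principal cells, and 0 for thick ascending limb. The part of the markers in the Klhl3 difference was not tested.

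**Figure D2:**
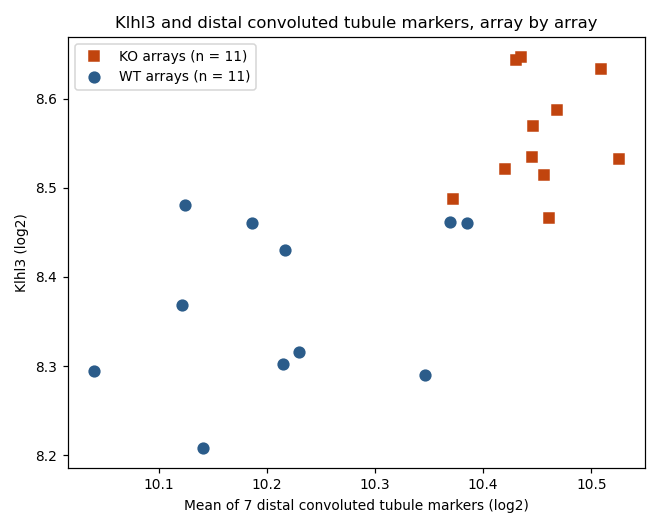
Klhl3 (vertical axis, log2) against the mean of 7 distal convoluted tubule markers (horizontal axis, log2), with 1 point per array, 11 KO squares and 11 WT circles. KO arrays sit in the upper right, with Klhl3 at 8.47 to 8.65, and WT arrays lie lower and mostly to the left, at 8.21 to 8.48.

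Cul3, the scaffold of the same ligase, showed no called difference. It ranged from 10.45 to 10.62 log2 in KO and from 10.46 to 10.62 in WT, with a median of 10.53 in each, so the arrays overlapped nearly fully. The difference was -0.0047 ± 0.03 log2, with a 95% interval of -0.07 to 0.06 (adjusted p = 0.937). No wave was called in KO (amplitude 0.05 ± 0.03) or WT (0.03 ± 0.03).

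Stk39, which encodes the kinase SPAK, ran from 9.07 to 9.44 with a median of 9.22 in KO arrays, and from 8.96 to 9.31 with a median of 9.08 in WT arrays. The difference of 0.14 ± 0.05 log2, or 10.4%, missed the threshold (adjusted p = 0.0595, unadjusted p = 0.00596). Single Stk39 arrays in KO read 9.22 / 9.07 (ZT0), 9.13 / 9.08 (ZT4), 9.27 / 9.22 (ZT8), 9.26 / 9.31 (ZT12), 9.14 (ZT16), 9.27 / 9.44 (ZT20). In WT they read 8.97 / 9.14 (ZT0), 9.04 / 9.31 (ZT4), 9.02 (ZT8), 9.12 / 8.98 (ZT12), 9.13 / 9.15 (ZT16), 9.08 / 8.96 (ZT20). KO pools were clear of WT pools at ZT8 (1 WT pool), ZT12 and ZT20 and overlapped them at the other times. How many of all genes separate in this way at single times was not counted, so this only describes the pools. Here single libraries decide the call: it was gained without WT ZT4 pool 2 (0.17 log2, adjusted p = 0.0113), whose 9.31 was the highest WT value. It was also gained without WT ZT16 pool 2 (adjusted p = 0.0491), KO ZT0 pool 2 (adjusted p = 0.0393) or KO ZT16 pool 1 (adjusted p = 0.0267). Without both KO pools at ZT20 the difference was 0.10 (adjusted p = 0.306).

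Oxsr1, which encodes the related kinase OSR1, ranged from 9.25 to 9.53 with a median of 9.40 in KO, and from 9.23 to 9.44 with a median of 9.30 in WT. Its group mean was higher in KO at 6 of 6 times, a count not made for all genes. The difference of 0.06 ± 0.04 log2 was not called (95% interval -0.02 to 0.14, adjusted p = 0.310). Neither kinase gene showed a called wave in either genotype. Amplitudes were 0.08 ± 0.05 in KO and 0.02 ± 0.05 in WT for Stk39, and 0.04 ± 0.04 in both for Oxsr1.

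Wnk1, the kinase upstream of SPAK and OSR1, ran from 10.76 to 10.95 log2 with a median of 10.84 in KO, and from 10.54 to 10.87 with a median of 10.73 in WT. Of 11 KO arrays, 5 lay above the highest WT array, a count not made for all genes. The difference was 0.10 ± 0.04 log2, or 7.55% (adjusted p = 0.0723, unadjusted p = 0.00856). It reached 0.27 ± 0.08 at ZT20, where Wnk1 read 10.89 and 10.88 in KO and 10.68 and 10.54 in WT (adjusted p = 0.122). Over the 12 group means, Wnk1 and Stk39 had a Pearson r of 0.848, the highest of any pair of members. Wnk1 and Oxsr1 had 0.590, and Wnk4 and Stk39 had 0.598. These values describe groups that share all arrays, and they were not set against pairs of all genes. The kidney makes both a full-length and a kinase-deficient kidney-specific Wnk1 transcript, and the probe set was not shown to separate them. The call was gained in 1 of 22 fits that each leave out 1 array, the fit without WT ZT16 pool 2 (0.12 log2, adjusted p = 0.0337). Without both KO pools at ZT20 the Wnk1 difference was 0.097 log2 (adjusted p = 0.237). A second, dimmer Wnk1 probe set, annotated to fewer transcripts, ran from 8.40 to 9.18 in KO and from 8.30 to 9.02 in WT, a difference of 0.17 ± 0.08 log2 (adjusted p = 0.215 when every probe set was tested).

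Wnk4, the WNK family member most tied to the cotransporter of the distal convoluted tubule, showed little. It ran from 8.42 to 8.71 with a median of 8.56 in KO and from 8.30 to 8.72 with a median of 8.51 in WT, so the ranges overlapped nearly fully. The difference was 0.03 ± 0.05 log2, with a 95% interval of -0.07 to 0.13 (adjusted p = 0.681). Amplitudes were 0.04 ± 0.05 in KO and 0.07 ± 0.05 in WT, and neither was called.

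The second comparison asked which members follow the time of day. In KO, 0 of 10 members were rhythmic in limma, against 2.46% of all genes, and 1, Sgk1, had an unadjusted p under 0.05, against 13.8% of all genes. In WT, 2 of 10 were rhythmic, Sgk1 and Nr3c2, against 6.48% of all genes, and 4 had an unadjusted p under 0.05 (also Klhl3 and Hsd11b2), against 22.6%. The fitted amplitude, the distance from mean to peak, was smaller in KO for 7 of 10 members, and in 61.6% of all genes.

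**Figure D3:**
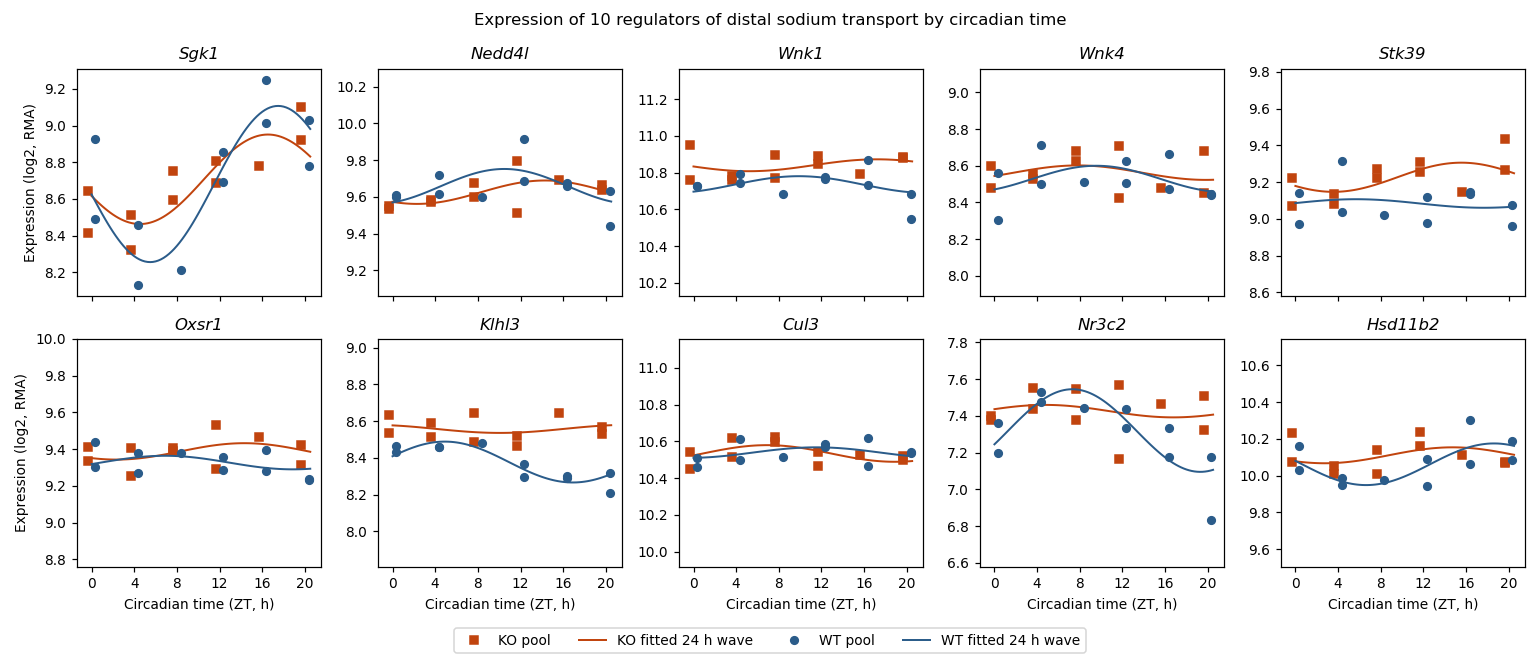
Log2 expression (vertical axes, each spanning the same range) by circadian time in h (horizontal axes) for the 10 members, with 1 point per pool and the fitted 24 h wave for KO (squares) and WT (circles). Sgk1 swings most, with WT pools from 8.13 to 9.25, and Klhl3 shows KO points above WT points at every time.

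Sgk1, the aldosterone- and glucocorticoid-induced kinase, had an amplitude of 0.24 ± 0.07 log2 in KO with a fitted peak at ZT16.5 ± 1.0 h (adjusted p = 0.177, unadjusted p = 0.0117). In WT it was 0.43 ± 0.07 with a peak at ZT17.5 ± 0.6 h (adjusted p = 0.00261). From trough to peak the fitted waves span 1.40-fold in KO and 1.80-fold in WT.

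Single Sgk1 arrays in KO read 8.64 / 8.41 (ZT0), 8.32 / 8.51 (ZT4), 8.75 / 8.59 (ZT8), 8.69 / 8.81 (ZT12), 8.78 (ZT16), 8.92 / 9.10 (ZT20). In WT they read 8.93 / 8.49 (ZT0), 8.13 / 8.46 (ZT4), 8.21 (ZT8), 8.86 / 8.69 (ZT12), 9.25 / 9.01 (ZT16), 9.03 / 8.78 (ZT20). KO was highest at ZT20 and lowest at ZT4, and WT was highest at ZT16 and lowest at ZT8, a time with 1 WT pool. In WT, the order of group means from high to low was ZT16, ZT20, ZT12, ZT0, ZT4 and ZT8. Neighbours overlapped except that ZT0 lay clear of ZT4. In KO, ZT20 lay clear of ZT16, and the other neighbours, down through ZT12, ZT8, ZT0 and ZT4, overlapped.

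The Sgk1 genotypes crossed over: KO pools were above WT at ZT8 by 0.46 ± 0.19 log2 (adjusted p = 0.862) and below it at ZT16 by -0.35 ± 0.19 (adjusted p = 0.788), both with 1 pool on one side. The difference between the waves themselves was 0.20 ± 0.10 log2 (adjusted p = 0.746), so a smaller Sgk1 wave in KO was not shown. The mean over the cycle differed by 0.03 ± 0.07 log2 (95% interval -0.12 to 0.17, adjusted p = 0.844). The WT amplitude was 0.56 within pool 1 (adjusted p = 0.0422) and 0.27 within pool 2 (adjusted p = 0.424), where the call was lost. A fit with a free level at each time gave an adjusted p of 0.0569. Of 12 immediate early genes, which respond fast to handling, 0 were rhythmic in WT in limma, against 6.48% of all genes. At an unadjusted p under 0.05 there were also 0, against 22.6%. A list of 12 is too short for a count of 0 to show that rhythm is absent. Fos had the largest WT amplitude of the list, 0.41 ± 0.17 log2 (unadjusted p = 0.0780 in limma), and 0.20 ± 0.17 in KO. List means were 7.33 to 8.04 log2 in KO and 7.45 to 7.77 in WT. In KO 0 were rhythmic, with 2 (Junb and Ier3) at an unadjusted p under 0.05, against 2.46% and 13.8% of all genes. For genotype 0 were called, with 2 at that unadjusted level, Fos (0.45 ± 0.17) and Jun (0.20 ± 0.07). The shares of all genes were 9.14% and 25.1%. Leaving out the ZT20 KO pools, 1 was called higher in KO, Fosb (0.77, adjusted p = 0.0360). Those genes were named after their values were seen, and the part of handling in the Sgk1 values was not tested.

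Genes whose 12 group means most resembled those of Sgk1 were Ch25h, a cholesterol hydroxylase, with a Pearson r of 0.945, the receptor phosphatase Ptprd (0.919) and the large scaffold Ahnak (0.899). Their amplitudes were smaller, from 0.06 to 0.11 log2 in KO and from 0.09 to 0.16 in WT, with WT peaks at ZT17.3, ZT16.6 and ZT16.4.

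**Figure D4:**
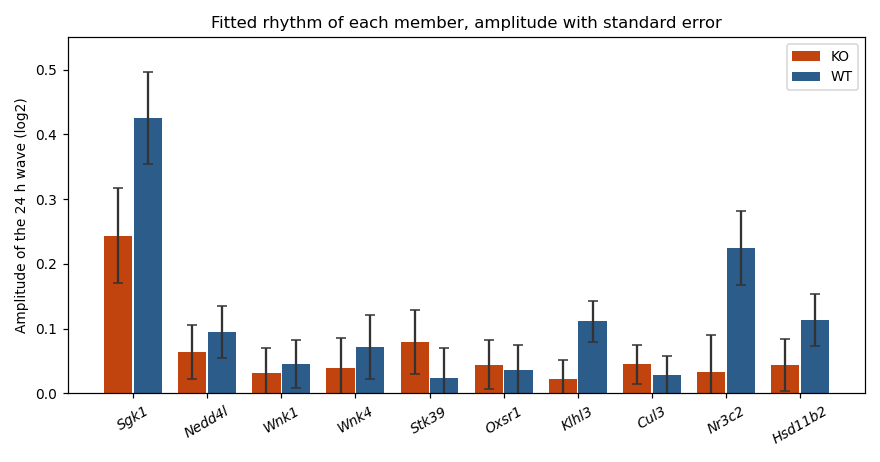
Amplitude of the fitted 24 h wave in log2 (vertical axis) with its standard error for the 10 members, KO bars left of WT bars, from 11 arrays per genotype. Sgk1 has the tallest bar in each genotype, at 0.24 in KO and 0.43 in WT, and the other members stay at 0.22 or less.

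Nr3c2, the mineralocorticoid receptor, was the other rhythmic member. Its amplitude was 0.03 ± 0.06 log2 in KO (adjusted p = 0.966), and in WT it was 0.22 ± 0.06 with a peak at ZT7.30 ± 0.88 h (adjusted p = 0.0471). Single arrays in KO read 7.38 / 7.40 (ZT0), 7.44 / 7.55 (ZT4), 7.38 / 7.55 (ZT8), 7.16 / 7.57 (ZT12), 7.47 (ZT16), 7.32 / 7.51 (ZT20). In WT they read 7.20 / 7.36 (ZT0), 7.48 / 7.53 (ZT4), 7.44 (ZT8), 7.44 / 7.33 (ZT12), 7.18 / 7.33 (ZT16), 6.83 / 7.18 (ZT20). Each KO group overlapped its neighbour in the order of means, although the ZT0 pools lay below those of ZT4 and ZT16. The KO pools were clear above the WT pools at ZT0, ZT16 (1 KO pool) and ZT20 and overlapped them at the other times. The share of all genes with such separations was not counted. The WT groups ran from ZT4, the highest, through ZT8, ZT12, ZT0 and ZT16 to ZT20, the lowest. In WT, ZT4 lay clear of ZT8 and ZT8, with its 1 pool, barely clear of ZT12, and neighbours from ZT12 down overlapped.

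Leaving out single arrays in turn, Nr3c2 lost its call in 18 of 22 fits, 10 of them without a WT array, with adjusted p up to 0.172 and an amplitude of 0.16 without WT ZT20 pool 1. It was also lost without both KO pools at ZT20 (adjusted p = 0.0588). With the WT arrays alone the adjusted p was 0.106, within pool 1 0.160 and within pool 2 0.495. The KO wave differed from the WT wave by 0.20 ± 0.08 log2 (adjusted p = 0.653, unadjusted p = 0.0585). At ZT20 the KO minus WT difference of Nr3c2 was 0.41 ± 0.14 log2 (adjusted p = 0.140). Over the cycle the difference was 0.11 ± 0.05 log2 (95% interval -0.01 to 0.22, adjusted p = 0.231). The genes most like Nr3c2 over the 12 group means were Pgap3, which remodels lipid anchors of proteins (r = 0.962), the zinc finger gene Zfp729b (0.936) and the splicing factor Cdc40 (0.932).

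Hsd11b2, the enzyme that shields the mineralocorticoid receptor from glucocorticoids, ran from 10.01 to 10.24 log2 with a median of 10.08 in KO, and from 9.94 to 10.30 with a median of 10.07 in WT. Its amplitude was 0.04 ± 0.04 in KO and 0.11 ± 0.04 in WT, with a WT peak at ZT18.6 ± 1.3 h, and neither was called (WT adjusted p = 0.179, unadjusted p = 0.0333). The genotype difference was 0.05 ± 0.04 log2 (95% interval -0.03 to 0.13, adjusted p = 0.444).

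Nedd4l, the ligase that removes the epithelial sodium channel from the cell surface, ran from 9.51 to 9.79 with a median of 9.60 in KO, and from 9.44 to 9.91 with a median of 9.63 in WT. Its genotype difference was -0.03 ± 0.04 log2 (95% interval -0.12 to 0.05, adjusted p = 0.643). At ZT12 its pools read 9.51 and 9.79 in KO, the lowest and the highest of the KO arrays, and 9.91 and 9.69 in WT. The highest group mean was at ZT16 in KO, with 1 pool at 9.69, and at ZT12 in WT, at 9.80. The amplitudes of 0.06 ± 0.04 in KO and 0.09 ± 0.04 in WT were not called.

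Klhl3 had an amplitude of 0.02 ± 0.03 log2 in KO (adjusted p = 0.946) and 0.11 ± 0.03 in WT, where the fitted peak was at ZT4.90 ± 1.08 h and the call was missed (adjusted p = 0.0763). Of the 10 members, 0 had waves that differed between genotypes in limma, with 0 at an unadjusted p under 0.05, against 0.043% and 7.78% of all genes. Klhl3 and Nr3c2 came nearest, with unadjusted p of 0.0540 and 0.0585. In the fit of group means, 0 members were called at any single time. The background of called genes was 0.0286% at ZT0, 0.00716% at ZT4, 0.0286% at ZT8, 0.122% at ZT12, 0.0143% at ZT16 and 1.75% at ZT20. At an unadjusted p under 0.05, the members were Sgk1 at ZT8, Stk39 at ZT12, Klhl3 at ZT16, and Klhl3, Stk39, Wnk1 and Nr3c2 at ZT20. The shares of all genes at that threshold were 4.44% at ZT0, 3.77% at ZT4, 5.76% at ZT8, 7.05% at ZT12, 7.01% at ZT16 and 18.7% at ZT20. All 4 members at ZT20 were higher in KO there, the time with the highest background of called genes.

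Among 14 measured ubiquitin ligase parts and their opponents, 0 were higher and 2 were lower in KO, against 3.9% of all genes called lower, with a list median of 0.03 log2. Klhl2, the close relative of Klhl3 that also brings WNK kinases to CUL3, was lower by -0.20 ± 0.04 log2 (adjusted p = 0.00124), opposite in direction to Klhl3. Usp2, a deubiquitinase under clock control that counteracts NEDD4-2 in cultured cells, was lower by -0.28 ± 0.07 (adjusted p = 0.00833). Usp2 was also the 1 list member of 14 rhythmic in WT, against 6.48% of all genes. Its amplitude was 0.25 ± 0.06 in KO and 0.48 ± 0.06 in WT. Both differences were called without the KO pools at ZT20, at -0.22 for Klhl2 and -0.32 for Usp2. Of 15 measured kinases and adaptors, 1 was higher and 1 lower, with a median of 0.01 log2, close to the shares over all genes of 5.23% higher and 3.9% lower. Cab39l, a relative of the MO25 scaffold that boosts SPAK and OSR1 activity, was higher by 0.14 ± 0.04 (adjusted p = 0.0163). Mtor, a kinase of the complex that activates SGK1, was lower by -0.28 ± 0.06 (adjusted p = 0.00290). None of the 15 was rhythmic in limma in either genotype, against 2.46% of all genes in KO and 6.48% in WT. At an unadjusted p under 0.05 there were 1 in KO and 3 in WT, against 13.8% and 22.6% of all genes. Wnk3 lay below the filter.

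Of 15 measured sodium and potassium transport genes, 3 were higher and 2 lower in KO, with a median of 0.08 log2, against 5.23% higher, 3.9% lower and a median of 0.0040 over all genes. Higher were the epithelial sodium channel subunit Scnn1g (0.20 ± 0.04, adjusted p = 0.00143), the potassium channel Kcnj1 (0.21 ± 0.04, adjusted p = 0.00179) and the pump regulator Fxyd4 (0.14 ± 0.04, adjusted p = 0.0387). Lower were the potassium channel Kcnma1 (-0.23 ± 0.05, adjusted p = 0.00635) and the cotransporter Slc12a2 (-0.17 ± 0.05, adjusted p = 0.0252). Leaving out that pair of ZT20 KO pools, Fxyd4 (adjusted p = 0.0996) and Slc12a2 (adjusted p = 0.114) lost their calls. Of 8 markers of the connecting tubule and principal cell, 3 were called higher and 0 lower. List means were 8.53 to 8.66 log2 in KO arrays and 8.40 to 8.63 in WT arrays. The markers did not all move one way, with 5 of 8 fitted differences above 0. Those of Aqp2 (-0.10 ± 0.05), Aqp3 (-0.03 ± 0.04) and Elf5 (-0.02 ± 0.05) were below 0 and not called. Scnn1g and Fxyd4 are also on that list, and the part of the markers in these differences was not tested.

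Of 13 measured genes of the steroid receptor side, 3 were rhythmic in KO and 7 in WT, against 2.46% of all genes in KO and 6.48% in WT. The list was chosen with earlier results known and includes the clock gene Per1, so its count is a description. Its median amplitudes were 0.14 log2 in KO and 0.27 in WT, against 0.07 and 0.09 over all genes. Without both KO pools at ZT20, 0 were called in KO and 7 in WT. The number of all genes rhythmic in KO also fell sharply in that fit, as given in the closing section. The 0 in KO therefore does not set this list apart. The glucocorticoid-induced Tsc22d3 had an amplitude of 0.43 ± 0.07 in KO and 0.64 ± 0.07 in WT, with a WT peak at ZT14.9. The receptor co-chaperone Fkbp5 had 0.43 ± 0.08 in KO and 0.41 ± 0.08 in WT, with a peak at ZT12.7. Another co-chaperone, Fkbp4, had 0.18 ± 0.03 in KO and 0.27 ± 0.04 in WT, and the chaperone Hsp90aa1 had 0.19 ± 0.05 in KO and 0.31 ± 0.05 in WT, with WT peaks at ZT20.7 and ZT20.0. The clock gene Per1 had 0.30 ± 0.09 in KO and 0.60 ± 0.09 in WT, with a peak at ZT10.7. Zbtb16 and Klf9, also rhythmic in WT, had WT peaks at ZT13.3 and ZT9.0. The WT peak of Sgk1 at ZT17.5 was later than those of Tsc22d3, Zbtb16, Fkbp5, Per1 and Klf9. It was earlier than those of the chaperone genes Fkbp4 and Hsp90aa1. The mean of Fkbp5 was lower in KO by -0.49 ± 0.08 log2 (adjusted p = 0.000704), as was that of Hsd11b1 by -0.56 ± 0.07 (adjusted p = 4.06e-05). Hsd11b1 encodes the enzyme that regenerates active glucocorticoid, the opposite of the reaction of Hsd11b2.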

How the data were processed

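Kidney RNA was measured on 22 Affymetrix-type expression arrays, 11 KO and 11 WT, grouped by the labelled genotype and circadian time. Each deposited number is a log2 level of a probe set. The authors used RMA, as the submitters' processing notes name it. No source used here gives a software version or genome build. RMA normally brings arrays to a common distribution, so much of a shift shared by most genes would be removed. The medians of the deposited values still averaged -0.033 log2 in KO minus WT. Results with array medians subtracted are given below. Arrays carry no depth, and their number limits the precision.

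Of 35556 probe sets, 21789 had 1 gene symbol. Those below the 30th percentile of their mean were left out and the brightest stood for each gene. limma 3.58.1 in R 4.3.3 fitted a mean, cosine and sine of 24 h per genotype (16 residual degrees of freedom) and, for single times, 12 group means (10 degrees). A group of 1 pool was assumed to vary like the others. P-values were adjusted over all genes and measure the spread between pools, which the labels do not say came from separate litters. Pool numbers were checked as pairs: correlations between groups ran from -0.411 to 0.547 in 45 pairs of groups, with a median of 0.119 and 25 over 0.1. The rule asked for all to pass 0.1, so they were not treated as pairs. The fits were tested on simulated data.

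The members and lists were chosen with earlier results of these data known. Named genes were all 10 members and called genes of the wider lists (up to 6 a list, by adjusted p). Zbtb16 and Klf9 were named beyond that limit, as remaining genes of the steroid receptor side rhythmic in WT. Called markers of the distal convoluted tubule and the 3 genes most like each rhythmic member were also named. Alternatives covered filters, normalization, the pool block, the wave model, the spread and arrays left out.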

Additional observations from a re-analysis of the deposited data

How the results depend on the processing

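The fits were repeated under 14 other settings and 22 fits that each leave out 1 array. Klhl3 stayed higher in KO in the 13 of those settings that give a genotype difference and in the 22 fits, and stayed called except within pool 1 or pool 2 alone. One setting leaves out 3 pool 2 arrays (KO ZT8, KO ZT12 and WT ZT4). It was added after seeing the data, because an earlier analysis described them as lying between the genotypes, so it favours a difference and supports none. The count of members called for genotype was 1 as reported. It was 2 with the 50th percentile filter and without the 3 pool 2 arrays, 3 with array medians subtracted, a trended robust spread or array weights, 0 within either pool, and 1 to 3 leaving out 1 array. Stk39 and Wnk1 were the additions. Over all genes, 1276 were called, 731 higher and 545 lower, turning to 1111 and 343 after subtracting array medians. There were 823 with group means, 2351 with weights, 639 without the KO pools at ZT20, 565 within pool 1, 1 within pool 2, and 903 to 1850 leaving out 1 array.

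Rhythmic members in WT numbered 2. They were 3 with the 50th percentile filter and with array medians subtracted, where Klhl3 was added (adjusted p = 0.0463 and 0.0438), 1 without a filter, after repeated quantile normalization, without the KO pools at ZT20, within pool 1, from WT arrays alone and without the 3 pool 2 arrays, 0 with group means and within pool 2, and 1 to 2 leaving out 1 array. Over all genes, 905 were rhythmic in WT, against 140 with group means, 95 in pool 1, 14 in pool 2, 363 from WT alone, 595 without the 3 arrays and 602 to 954 leaving out 1. In KO, 343 were rhythmic, against 228 without a filter, 59 with group means, 697 with weights, 12 without the KO pools at ZT20, 0 in pool 1 and in pool 2, 195 from KO alone, 58 without the 3 arrays and 77 to 477 leaving out 1. Waves differed in 6 genes, against 10 with the 50th percentile filter, 1 with group means, 11 with weights, 3 without the KO pools at ZT20, 3 in pool 1, 0 in pool 2, 20 without the 3 arrays and 1 to 11 leaving out 1. No member was called for KO rhythm, wave difference or a single time under any setting run. Several of these settings use fewer arrays. The fit of 12 group means has 10 residual degrees of freedom, against 16 in the wave fit. The causes of the changes in these counts were not tested.

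Differences near 0 changed sign without being called. Nedd4l was 4.30e-05 with medians subtracted and 0.027 in pool 2. Cul3 was 0.027 with medians subtracted, 0.00091 with group means, 0.00062 with weights, 0.0035 in pool 1, 0.0012 without the 3 arrays and -0.014 to 0.0074 leaving out 1 array. Sgk1 was -0.048 without the KO pools at ZT20, -0.050 in pool 1 and -0.0089 to 0.059 leaving out 1 array, and Wnk4 was -0.013 in pool 1.

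With the pool number as a block, Klhl3 differed by 0.18 log2 (adjusted p = 0.000522), 2 members were rhythmic in WT, with Nr3c2 at an adjusted p of 0.00914, and 1405 genes were called for genotype. The numbers mark no shared animal or day in the labels, and the block changed no call of a member.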
